A study of Mus musculus with 47 samples.

Results

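A set of 10 genes of Notch signalling (Notch1, Notch2, Notch3, Jag1, Jag2, Dll1, Hes1, Hey1, Nrarp and Dtx1) was followed through bulk RNA-seq of mouse medullary thymic epithelial cells. The genes were selected on a measured value, because Notch1 showed an Aire by EED interaction in the neonatal cells. All 10 were listed in both raw count tables, among 53402 genes in the adult table and 55471 in the neonatal table. The libraries that gave that interaction therefore describe Notch1 but cannot test it, and in the comparisons that use neonatal mTEChi its values are given without a p.

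The study took epithelial cells (CD45-EpCAM+Ly51-) from the thymus of C57BL/6 mice and sorted them by MHC class II into a high fraction (mTEChi), which holds the mature medullary cells, and a low fraction (mTEClo). It asked how medullary cells depend on Aire, the transcriptional regulator that broadens their gene expression, and on EED, which the histone methyltransferase complex PRC2 (Polycomb repressive complex 2) needs to work. The adult mice, aged 4 to 6 weeks, were wild type (WT, 8 mTEClo and 7 mTEChi libraries) or Aire-deficient (AireKO, 4 and 4 libraries). The neonatal mice, aged 1 to 6 days, were controls (Ctrl, 3 mTEClo and 5 mTEChi libraries), EEDcKO (4 and 3), AireKO (3 mTEChi libraries only) and AireEEDdKO (3 and 3), 47 libraries in all. EEDcKO mice carry floxed EED alleles and Foxn1-Cre, whose driver is active throughout thymic epithelium, cortical and medullary. AireEEDdKO mice carry the same alleles and driver and lack Aire in addition, and no genotype of the Ctrl mice beyond that name was given in the sources used here. The labels describe 9 neonatal libraries as pooled from both sexes. They do not say whether replicates of a group alike in sex and age came from separate animals. The p-values therefore measure the spread between these libraries, which may be partly technical.

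Notch receptors are cleaved when a ligand of the Jagged or Delta-like family on a neighbouring cell binds them, and the released intracellular part joins the DNA-binding protein RBPJ to switch on target genes. Hes1 and Hey1 encode repressors that are classical targets, Nrarp encodes a feedback inhibitor of the intracellular part, and Dtx1 encodes Deltex1, a ubiquitin ligase of the pathway. In the thymus, Dll4 on cortical epithelium drives lymphoid progenitors into the T lineage, while Notch activity inside epithelial cells marks early medullary progenitors and has to fall for later stages. PRC2 places the repressive mark H3K27me3, typically over promoters rich in CG dinucleotides.

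The stretches of 150 bases shown here lie upstream of the annotated starts of Notch1, Notch3 and Nrarp, the members with the largest differences between EEDcKO and Ctrl libraries for which such a stretch free of exons was at hand. They come from RefSeq windows on GRCm38.p6 and are written 5′ to 3′ on the gene's own strand, with every CG dinucleotide in capitals. The RefSeq start of Notch1 lies inside the longer Ensembl gene model given further down.
Notch1, chr2:26503825-26503974, minus strand: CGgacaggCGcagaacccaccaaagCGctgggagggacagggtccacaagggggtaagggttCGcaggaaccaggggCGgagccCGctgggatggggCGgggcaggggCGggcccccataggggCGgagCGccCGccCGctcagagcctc
Notch3, chr17:32166891-32167040, minus strand: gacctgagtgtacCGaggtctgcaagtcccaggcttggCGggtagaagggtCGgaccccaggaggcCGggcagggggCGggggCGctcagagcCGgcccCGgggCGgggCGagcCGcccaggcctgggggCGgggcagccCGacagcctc
Nrarp, chr2:25180608-25180757, plus strand: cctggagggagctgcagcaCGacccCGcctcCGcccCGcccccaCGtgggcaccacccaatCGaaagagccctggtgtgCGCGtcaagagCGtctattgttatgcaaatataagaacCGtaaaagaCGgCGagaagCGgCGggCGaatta
These stretches hold 12, 13 and 15 CG dinucleotides for Notch1, Notch3 and Nrarp.

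Windows of 300 bases (250 before and 50 after the start) were found for 8 of the 10 members, 9 windows in all because Dll1 has a pair of starts, and none was found for Hes1 and Hey1. They held 15 to 63 CG dinucleotides, the lowest at the upstream Dll1 start and the highest at Jag2. The median was 7 over 32851 windows of the same length. Of all windows, 34.6% held at least as many as the upstream Dll1 start. For Nrarp, Notch1 and Notch3 this share was 24.8%, 21.5% and 18.4%. The share was 3.46% for Notch2 and 0.0304% for Jag2, and no lower than 16.9%, that of Dtx1, for any other member window. The core letters bound by RBPJ, TGGGAA on either strand, occurred in 0 of the 9 windows and in 25.6% of all windows, which says only that these letters are not in these windows. No measurement of H3K27me3, DNA methylation or RBPJ binding was analysed here.

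Library totals ran from 1602125 to 3938588 counts in the adult table and from 1578579 to 4817418 in the neonatal table. Levels are given as CPM (counts divided by the library's effective total and scaled to a common depth), with effective totals by the TMM method, and a gene was called where the edgeR quasi-likelihood F-test gave a Benjamini-Hochberg adjusted p under 0.05 over all genes tested in its table (19310 adult, 20196 neonatal). All 7 markers of thymic epithelium were detected in every group. Aire stood at 746 to 914 CPM in adult WT mTEChi and at 16.6 to 38.1 CPM in its AireKO counterpart, and Eed at 38.5, 35.5, 26.7, 23.3 and 20.2 CPM in neonatal Ctrl mTEChi and 19.7, 10.6 and 13.7 CPM in EEDcKO. Of the adult libraries, 6 held no mitochondrial counts at all, namely every AireKO library of mTEChi and replicates 3 and 4 of AireKO mTEClo, so that genotype and kind of library cannot be told apart in adult mTEChi. All 8 adult AireKO libraries were from males and 4 of them from mice of 6 weeks, whereas 7 of the 15 WT libraries were from females and none was from a mouse over 5 weeks. Some libraries of a group were closer to each other than to the rest. In adult AireKO mTEChi, replicates 1 and 2 and replicates 3 and 4 differed by a chi-square of 1.28 to 1.34 per gene, where sampling noise alone gives about 1, and the other pairs by 4.00 to 6.39. Libraries this close (under 2 per gene) occurred in 6 of the 11 groups. Among them, adult WT mTEChi replicate 3, labelled male, was close to replicates 4 and 5, labelled female (1.79 and 1.92). Neonatal Ctrl mTEClo replicates 1, female, and 2, male, were also close (1.78). Libraries of different sex came from different animals. For close pairs alike in sex and age, whether they came from separate animals was not given.

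Members rose in EED-deficient cells of both fractions. In neonatal mTEClo, 7 of 10 members passed the test between EEDcKO and Ctrl, 6 higher and 1 lower (30.7% of all genes tested passed, median log2 change 0.91 over the members tested and -0.0058 over all genes tested). In neonatal mTEChi, 7 of the 9 members tested passed, all higher in EEDcKO (32.6% of all genes, median log2 change 1.22 over the members tested and -0.0012 over all genes tested). With Aire knocked out in both groups, 5 of 9 members were higher in AireEEDdKO than in AireKO mTEChi. Of all genes tested 16.8% passed, and the median log2 change was 0.88 over the members tested and 0.034 over all genes tested. Reads of Aire remained and were not equal there, at 9.86 to 32.1 CPM in AireEEDdKO and 44.4 to 114 CPM in AireKO. The log2 difference of Aire was -1.76 (edgeR adjusted p = 0.0284). Leaving out any 1 of these 6 libraries brought the count of 5 down to between 1 and 4. In these bulk samples, fewer cells of a type and less RNA per cell cannot be told apart.

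Aire deficiency gave calls in both directions in the adult. In adult mTEChi 6 of 9 members passed between AireKO and WT, 3 higher and 3 lower, where 54.5% of all genes passed, so that this share of members is near the background. In adult mTEClo 5 of 9 passed, 3 higher and 2 lower (25.1% of all genes). The Aire effect differed between the adult fractions for 4 of 9 members, 2 in each direction (24.4% of all genes). In neonatal mTEChi 2 of 9 members fell between AireKO and Ctrl (28.8% of all genes), and 2 of 9 were lower in AireEEDdKO than in EEDcKO (22.5% of all genes).

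The adult counts changed when closely alike libraries were taken as 1 sample, although some of these differed in labelled sex and so came from different animals. With the closely alike libraries of a group summed and counted once, an alternative chosen after seeing the data, 3 members passed in adult mTEChi (Notch1, Notch3 and Dll1), 1 in adult mTEClo (Notch3) and 1 for the difference between the fractions (Dll1). The share of all genes that passed was then 40.3%, 15.4% and 13.9%. The neonatal counts moved by at most 1, and the call of Hey1 for the difference in EED effects was lost (edgeR adjusted p = 0.105).

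Among the 9 members other than Notch1, 0 passed the test of the Aire by EED interaction in neonatal mTEChi (1.57% of all genes passed). At an unadjusted p under 0.05 there was 1, Nrarp, with an interaction of -1.83 ± 0.85 (SE) (edgeR adjusted p = 0.282), and DESeq2 called 0. In neonatal mTEClo 0 of 10 members passed between AireEEDdKO and EEDcKO (8.02% of all genes), with 0 at an unadjusted p under 0.05 and 0 by DESeq2. The EED effect differed between the neonatal fractions for 1 of 9 members, Hey1 (1.98% of all genes). Between fractions of unmutated cells, 9 of 9 members differed in adult WT (8 lower in mTEChi, 1 higher, with 70.3% of all genes passing) and 5 of 9 in neonatal Ctrl (all lower in mTEChi, 37.4% of all genes). Several of these comparisons share their Ctrl, WT, AireKO or EEDcKO libraries and are not independent of each other.

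**Figure D1:**
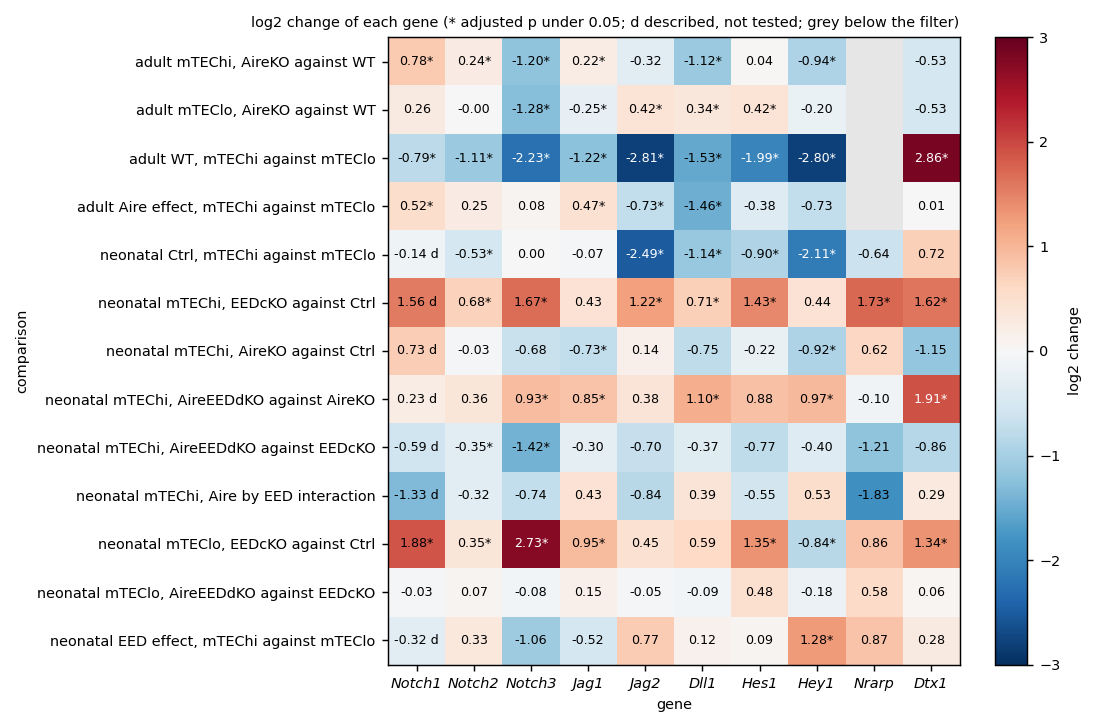
Heat map of the log2 change of each member (columns) in each comparison (rows), with an asterisk for an edgeR adjusted p under 0.05, a d for Notch1 values that are described without a test, and grey for Nrarp in the adult table, where it was below the filter on low counts. The neonatal EEDcKO comparisons hold mostly positive changes, with Hey1 in mTEClo at -0.84 as the exception among the calls.

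Notch1, the receptor on which the set was selected (ENSMUSG00000026923, chromosome 2, 26457903 to 26516663), stood at 181, 171, 164, 154 and 225 CPM in the neonatal Ctrl mTEChi libraries. In EEDcKO mTEChi it was at 494, 539 and 549.9 CPM and in AireKO mTEChi at 364, 255 and 277 CPM. AireEEDdKO mTEChi had 333, 333 and 382 CPM. Both single mutants lay above every Ctrl library, and the AireEEDdKO libraries lay below every EEDcKO library and overlapped those of AireKO. The log2 differences were 1.56 for EEDcKO against Ctrl, 0.73 for AireKO against Ctrl and 0.23 for AireEEDdKO against AireKO, which leaves the interaction of -1.33 that chose the gene. Over 24 other settings, fitted to the libraries that chose the gene, the interaction ran from -1.44 to -1.18. That range describes the fits and is no test of the interaction.

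The same Notch1 levels in mTEChi can be listed by age, as a description only, since they entered the choice of the gene. At 6 days Notch1 was at 181 and 171 CPM in Ctrl mTEChi, 494 in EEDcKO, 255 in AireKO and 333 in AireEEDdKO. At 2 to 3 days it was at 164 and 154 CPM in Ctrl and 539 in EEDcKO, and at 1 day at 225 and 549.9 CPM. There was 1 EEDcKO library at each age, and no AireKO library was younger than 4 days.

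Neonatal mTEClo libraries did not enter the choice of Notch1, but they may share animals with the mTEChi libraries that did. Ctrl mTEClo replicates 1, 2 and 3 had the labelled sex and age of Ctrl mTEChi replicates 3, 4 and 5. EEDcKO mTEClo replicates 1, 2 and 3 had those of EEDcKO mTEChi replicates 2, 3 and 1. Shared animals were not stated, so the p for mTEClo may not be independent of the choice. In mTEClo Notch1 was at 162, 204 and 228 CPM in Ctrl and 612, 807, 723 and 767 CPM in EEDcKO libraries. The ranges were far apart, and Notch1 rose by 1.88 ± 0.15 (SE) on the log2 scale (edgeR adjusted p = 1.08e-08). AireEEDdKO mTEClo had Notch1 at 722, 735 and 679.9 CPM, inside the EEDcKO range, a log2 difference of -0.030 (edgeR adjusted p = 0.929). At matched ages the Ctrl and EEDcKO mTEClo levels were 162 and 204 against 612 CPM at 2 to 3 days and 228 against 807 CPM at 1 day.

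Adult WT mTEChi held Notch1 at 229.5 to 346 (median 308) CPM and AireKO mTEChi at 572, 518, 464 and 464 CPM. All AireKO libraries were above all WT libraries, and Notch1 rose by 0.78 ± 0.13 (SE) on the log2 scale (edgeR adjusted p = 1.12e-05). Adult mTEClo had Notch1 at 376 to 597 (median 550.3) CPM in WT and 706, 698, 568 and 470.1 CPM in AireKO, which overlap, with a difference of 0.26 ± 0.13 (SE) (edgeR adjusted p = 0.133). That mTEClo difference was 0.45 (edgeR adjusted p = 0.0308) and past the test among libraries with mitochondrial counts. It also passed with sex (0.40, edgeR adjusted p = 0.0452) or kind of library (0.47, edgeR adjusted p = 0.0216) as a term. The Aire effect on Notch1 was larger in mTEChi than in mTEClo by 0.52 ± 0.18 (SE) (edgeR adjusted p = 0.0387). That call was lost on leaving out mTEClo WT replicate 1, 2 or 7 or mTEClo AireKO replicate 3 or 4 or mTEChi AireKO replicate 1 or 2 (edgeR adjusted p 0.0518 to 0.0681). The call of a larger effect in mTEChi also ended with sex as a term (edgeR adjusted p = 0.0701) and with male libraries only (edgeR adjusted p = 0.122). It ended as well under the replicate block, with library size alone and with closely alike libraries summed (edgeR adjusted p 0.0707 to 0.104). In WT the mTEChi level lay below the mTEClo level, with a log2 difference of -0.79 ± 0.11 (SE) (edgeR adjusted p = 2.81e-07), while neonatal Ctrl differed by -0.14 with overlapping ranges. The annotated spans of 0610009E02Rik, Gm13568 and Mir6996 overlap that of Notch1, and reads were counted without regard to strand. Whether their exons share bases was not examined.

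Notch2, a second receptor (ENSMUSG00000027878, chromosome 3, 98013527 to 98150361), was at 322, 348, 399, 412 and 417 CPM in neonatal Ctrl and 553, 644 and 629 CPM in EEDcKO mTEChi. The ranges did not overlap and Notch2 rose by 0.68 ± 0.11 (SE) on the log2 scale (edgeR adjusted p = 6.96e-05). AireKO mTEChi had Notch2 at 385, 333 and 400.4 CPM, within the Ctrl range, a difference of -0.027 (edgeR adjusted p = 0.886). AireEEDdKO mTEChi lay between these groups at 475, 447 and 510.3 CPM. Against EEDcKO it fell by 0.35 ± 0.12 (SE) on the log2 scale (edgeR adjusted p = 0.0421), and against AireKO the difference was 0.36 ± 0.12 (SE) (edgeR adjusted p = 0.0507), just outside the threshold although the ranges did not overlap. The call against EEDcKO was lost on leaving out mTEChi EEDcKO replicate 2 or 3 or mTEChi AireEEDdKO replicate 1 or 2 (edgeR adjusted p 0.0634 to 0.151).

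Neonatal mTEClo carried Notch2 at 524, 575 and 550.2 CPM in Ctrl and 609, 647, 743 and 808 CPM in EEDcKO, and it rose by 0.35 ± 0.12 (SE) on the log2 scale (edgeR adjusted p = 0.0231). This small change was lost on leaving out mTEClo Ctrl replicate 1, 2 or 3 or mTEClo EEDcKO replicate 3 or 4 (edgeR adjusted p 0.0554 to 0.161). AireEEDdKO mTEClo was at 722, 693 and 800.0 CPM, inside the range of EEDcKO. Ctrl mTEChi was below Ctrl mTEClo in Notch2, with a log2 difference of -0.53 ± 0.11 (SE) (edgeR adjusted p = 0.000750).

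Adult Notch2 ran at 326 to 419.9 (median 380.2) CPM in WT mTEChi and at 488, 449.9, 447 and 424 CPM in AireKO mTEChi. The groups were adjacent without overlap, and Notch2 rose by 0.24 ± 0.097 (SE) on the log2 scale (edgeR adjusted p = 0.0344). That call was lost on leaving out mTEChi WT replicate 1 or mTEChi AireKO replicate 1, 2 or 3 (edgeR adjusted p 0.0508 to 0.0567). Scaled by library size alone the difference was 0.13 (edgeR adjusted p = 0.240), and the call also ended with DESeq2, with age in weeks as a term and with closely alike libraries summed. In mTEClo the WT range of 676 to 915 (median 856) CPM overlapped the AireKO values of 886, 966, 807 and 637 CPM, with a difference of -0.0048 (edgeR adjusted p = 0.983). The WT fractions had a log2 difference of -1.11 ± 0.082 (SE) (edgeR adjusted p = 8.51e-13), mTEChi being lower.

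Notch3, a receptor best known from vascular smooth muscle and pericytes (ENSMUSG00000038146, chromosome 17, 32120820 to 32166852), gave the largest EED-related change among the receptors in mTEClo. Neonatal mTEClo had Notch3 at 22.1, 33.0 and 31.8 CPM in Ctrl and 177, 274, 168 and 147 CPM in EEDcKO. Every EEDcKO library was well above every Ctrl library, and Notch3 rose by 2.73 ± 0.27 (SE) on the log2 scale (edgeR adjusted p = 1.65e-07). AireEEDdKO mTEClo stood at 122, 246 and 173 CPM, a difference from EEDcKO of -0.082 (edgeR adjusted p = 0.875) with overlapping ranges.

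Neonatal mTEChi had Notch3 at 31.8, 19.5, 30.6, 19.6 and 40.9 CPM in Ctrl and 88.5, 84.2 and 103 CPM in EEDcKO, without overlap. There Notch3 rose by 1.67 ± 0.23 (SE) on the log2 scale (edgeR adjusted p = 1.81e-05). The EED effect in mTEChi differed from that in mTEClo by -1.06 ± 0.35 (SE) (edgeR adjusted p = 0.129), which did not pass. In AireKO mTEChi Notch3 stood at 17.7, 18.4 and 17.9 CPM, below every Ctrl library, with a difference of -0.68 ± 0.28 (SE) (edgeR adjusted p = 0.0770). AireEEDdKO mTEChi was at 30.9, 34.9 and 36.6 CPM, within the Ctrl range. Notch3 rose by 0.93 ± 0.31 (SE) on the log2 scale (edgeR adjusted p = 0.0433) against AireKO and fell by 1.42 ± 0.27 (SE) on the log2 scale (edgeR adjusted p = 0.000838) against EEDcKO. The rise over AireKO was lost on leaving out any of the 6 libraries (edgeR adjusted p 0.0670 to 0.127) and with the replicate number as a block (edgeR adjusted p = 0.0567).

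Adult AireKO libraries were low in Notch3 in both fractions. Adult mTEChi had Notch3 at 23.7 to 47.7 (median 36.0) CPM in WT and 18.8, 15.4, 14.3 and 17.8 CPM in AireKO, and it fell by 1.20 ± 0.17 (SE) on the log2 scale (edgeR adjusted p = 1.30e-06). Adult mTEClo had Notch3 at 153 to 206 (median 177) CPM in WT and 79.0, 75.9, 83.4 and 58.6 CPM in AireKO, and it fell by 1.28 ± 0.14 (SE) on the log2 scale (edgeR adjusted p = 7.49e-08). Neither pair of groups overlapped, and the Aire effects in mTEChi and mTEClo differed by 0.076 (edgeR adjusted p = 0.849). The mTEClo value was -1.22 (edgeR adjusted p = 1.71e-05) among libraries that held mitochondrial counts. WT mTEChi was below WT mTEClo, with a log2 difference of -2.23 ± 0.12 (SE) (edgeR adjusted p = 5.81e-16), whereas neonatal Ctrl fractions had a difference of 0.0023 (edgeR adjusted p = 0.996). The annotated span of the antisense transcript Gm17276 overlaps that of Notch3, and reads were counted without strand. Its part in the Notch3 counts was not examined.

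Summed marker levels of other cells moved with the EEDcKO libraries. The 8 mesenchyme and pericyte markers summed to 594 to 646 CPM in Ctrl and 802 to 1398 CPM in EEDcKO mTEClo, and to 681 to 813 and 1017 to 1547 CPM in mTEChi, with all 8 detected in each of these groups. The 4 immature mTEC markers summed to 437 to 522 against 816 to 1106 CPM in mTEClo and 296 to 357 against 600.2 to 758 CPM in mTEChi. Both lists were thus higher in every EEDcKO library. In mTEChi the 7 markers of thymic epithelium were higher as well, at 1012 to 1211 CPM in Ctrl and 1213 to 1639 CPM in EEDcKO. The mature mTEC, cortical and thymocyte lists overlapped between Ctrl and EEDcKO in mTEChi. Lower in EEDcKO mTEClo were the 6 cortical epithelial markers, at 1809.9 to 2805 CPM in Ctrl and 258 to 928 CPM in EEDcKO, and the 6 mature mTEC markers, at 1103 to 1124 and 566 to 959 CPM. Lower in EEDcKO mTEChi were the 6 myeloid markers, at 339.7 to 399 CPM in Ctrl and 203 to 336 CPM in EEDcKO, and the 7 endothelial markers, at 48.1 to 71.7 and 40.5 to 43.8 CPM, with Emcn at 0 in EEDcKO. The other lists overlapped between Ctrl and EEDcKO in mTEClo, the endothelial one at 27.9 to 32.8 and 17.8 to 31.4 CPM with Emcn at 0 in Ctrl.

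AireEEDdKO mTEChi was above AireKO mTEChi in the mesenchyme and pericyte markers, at 1101 to 1313 against 736 to 1021 CPM with Pdgfra at 0 in AireKO, and in the immature mTEC markers, at 580.0 to 630.2 against 412 to 455 CPM. The endothelial markers were lower there, at 36.9 to 42.4 against 43.7 to 47.6 CPM. Neonatal AireKO mTEChi also stood apart from Ctrl, above it in the immature mTEC markers and below it in the thymocyte markers, at 61.8 to 102 against 108 to 135 CPM, and in the endothelial markers. Between AireEEDdKO and EEDcKO mTEChi no list was without overlap.

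In adult mTEChi the 6 mature mTEC markers, Aire among them, summed to 2016 to 2350.4 CPM in the WT libraries against 1248 to 1459 CPM without Aire. The mesenchyme and pericyte markers were lower without Aire, at 456 to 588 CPM, than with it, at 675 to 743 CPM. The 14 thymocyte markers stood there at 97.6 to 129 CPM with Aire and 47.9 to 62.4 CPM without it. The 6 myeloid markers were higher without Aire, at 405 to 501 and 534 to 613 CPM. In adult mTEClo the myeloid markers summed to 54.4 to 105 CPM with and 125 to 159 CPM without Aire, and the cortical epithelial markers to 197 to 241 and 285 to 502 CPM. The mesenchyme and pericyte markers overlapped there, at 749 to 1032 and 874 to 1040.5 CPM. The part of these lists in the changes of the members was not tested.

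**Figure D2:**
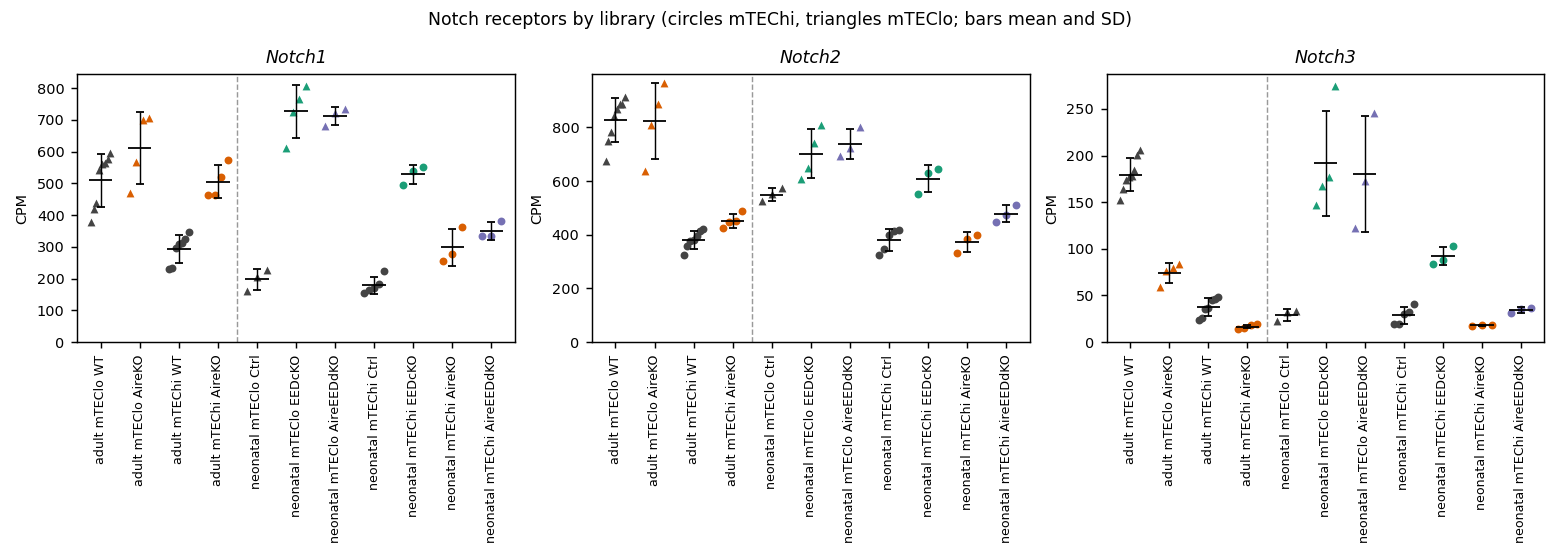
Notch1, Notch2 and Notch3 in CPM for each library, by group, with the group mean and bars of 1 SD; circles are mTEChi, triangles mTEClo, and the dashed line parts the adult from the neonatal table. Neonatal EEDcKO mTEChi and mTEClo lie above their Ctrl groups for all 3 receptors, and adult AireKO libraries lie below WT for Notch3.

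Jag1, a ligand of the Jagged family (ENSMUSG00000027276, chromosome 2, 137081456 to 137116644), was at 113, 142 and 108 CPM in neonatal Ctrl mTEClo and 186, 198, 266 and 285 CPM in EEDcKO mTEClo. The groups did not overlap, and Jag1 rose by 0.95 ± 0.19 (SE) on the log2 scale (edgeR adjusted p = 0.000747). AireEEDdKO mTEClo had Jag1 at 203, 296 and 281 CPM, a difference from EEDcKO of 0.15 (edgeR adjusted p = 0.674). The 6-day and 4-day EEDcKO libraries, replicates 3 and 4, were the highest of their group, and the Ctrl mTEClo libraries were all 1 to 3 days old. Ctrl and EEDcKO mTEClo of 2 to 3 days were at 113 and 142 against 186 CPM, and of 1 day at 108 against 198 CPM.

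Neonatal mTEChi showed Jag1 at 93.2, 91.1, 127, 139 and 124 CPM in Ctrl and 151, 122 and 194 CPM in EEDcKO, which overlap, with a difference of 0.43 ± 0.18 (SE) (edgeR adjusted p = 0.0735). AireKO mTEChi was at 74.7, 53.3 and 79.3 CPM, below all Ctrl libraries, and Jag1 fell by 0.73 ± 0.20 (SE) on the log2 scale (edgeR adjusted p = 0.00786). In AireEEDdKO mTEChi it was at 122, 138 and 119 CPM, and it rose by 0.85 ± 0.22 (SE) on the log2 scale (edgeR adjusted p = 0.00801) against AireKO. The rise was lost on leaving out mTEChi AireKO replicate 2 (edgeR adjusted p = 0.0533). The fall in AireKO had an edgeR adjusted p of 0.0562 under the replicate block and 0.106 among libraries aged 4 days or more, the latter a restriction chosen after seeing the data.

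Adult Jag1 calls with Aire deficiency were small. WT mTEChi had Jag1 at 121 to 172 (median 146) CPM and AireKO mTEChi at 154, 147, 189 and 191 CPM, overlapping, and it rose by 0.22 ± 0.092 (SE) on the log2 scale (edgeR adjusted p = 0.0447). That call was lost on leaving out mTEChi WT replicate 4, 5 or 7 or mTEChi AireKO replicate 3 or 4 (edgeR adjusted p 0.0597 to 0.175). Scaled by library size alone the difference was 0.11 (edgeR adjusted p = 0.335), and with male libraries only it was 0.15 (edgeR adjusted p = 0.253). The change passed under none of the other settings tried, except in some of the fits that left out 1 library. Adult mTEClo had Jag1 at 301 to 376 (median 338) CPM in WT and 286, 301, 295 and 268 CPM in AireKO, and it fell by 0.25 ± 0.088 (SE) on the log2 scale (edgeR adjusted p = 0.0399). The fall was lost on leaving out mTEClo WT replicate 1, 2 or 3 or mTEClo AireKO replicate 1 or 4 (edgeR adjusted p 0.0570 to 0.0749). It was also lost with age in weeks (edgeR adjusted p = 0.228) or kind of library (0.178) as a term, and with male libraries only (0.183). Among libraries with mitochondrial counts the edgeR adjusted p was 0.128, and with closely alike libraries summed 0.115. The estimates of the Aire effect in the adult fractions had opposite signs, and their difference was 0.47 ± 0.13 (SE) (edgeR adjusted p = 0.00763). This difference had an edgeR adjusted p of 0.100 with male libraries only and 0.0608 with closely alike libraries summed. In WT the log2 difference of mTEChi from mTEClo was -1.22 ± 0.077 (SE) (edgeR adjusted p = 2.76e-14), and in neonatal Ctrl it was -0.068 (edgeR adjusted p = 0.797).

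Jag2, the other Jagged ligand (ENSMUSG00000002799, chromosome 12, 112907819 to 112929776), was mainly a transcript of mTEClo. Adult WT mTEClo had Jag2 at 219 to 314 (median 293) CPM and WT mTEChi at 24.3 to 48.2 (median 42.7) CPM, a log2 difference of -2.81 ± 0.14 (SE) (edgeR adjusted p = 3.05e-16). Neonatal Ctrl mTEClo had Jag2 at 222, 232 and 359.9 CPM and mTEChi at 33.5, 34.4, 37.6, 72.3 and 57.1 CPM, a difference of -2.49 ± 0.28 (SE) (edgeR adjusted p = 1.19e-06). In neither table did the Jag2 levels of these fractions overlap.

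EEDcKO mTEChi had Jag2 at 74.3, 164 and 92.9 CPM, all above the Ctrl libraries, and it rose by 1.22 ± 0.28 (SE) on the log2 scale (edgeR adjusted p = 0.00224). Replicate 2, a library of 2 to 3 days, was the highest, and without it the call was lost (edgeR adjusted p = 0.0582). AireKO mTEChi was at 60.5, 32.1 and 63.6 CPM and AireEEDdKO mTEChi at 48.5, 46.4 and 108 CPM, and Jag2 differed between them by 0.38 (edgeR adjusted p = 0.499). EEDcKO mTEClo had Jag2 at 353, 391, 356 and 379 CPM, a difference from Ctrl of 0.45 (edgeR adjusted p = 0.248), and Ctrl replicate 3 lay within the EEDcKO libraries. AireEEDdKO mTEClo was at 349, 326 and 398 CPM.

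Adult AireKO mTEClo had Jag2 at 420.3, 423, 369 and 279.9 CPM, with 3 of 4 libraries above every WT library, and it rose by 0.42 ± 0.14 (SE) on the log2 scale (edgeR adjusted p = 0.0342). This call was lost on leaving out mTEClo WT replicate 3, 4, 5, 6 or 8 or mTEClo AireKO replicate 1, 2 or 3 (edgeR adjusted p 0.0506 to 0.109). It also ended with age in weeks as a term (edgeR adjusted p = 0.183), male libraries only (0.0868), the replicate block (0.0685) and closely alike libraries summed (0.219). DESeq2 gave an adjusted p of 0.0576. Among libraries with mitochondrial counts the rise was 0.58 and passed (edgeR adjusted p = 0.00539). Adult AireKO mTEChi had 44.1, 36.3, 22.0 and 26.0 CPM, overlapping WT, with a difference of -0.32 (edgeR adjusted p = 0.159). The Aire effect on Jag2 was lower in mTEChi than in mTEClo, with a log2 difference of -0.73 ± 0.24 (SE) (edgeR adjusted p = 0.0241). That difference was lost on leaving out mTEClo WT replicate 4 or mTEChi AireKO replicate 3 or 4, at an edgeR adjusted p up to 0.0842. It also ended with male libraries only (edgeR adjusted p = 0.0899), kind of library as a term (0.0965) and closely alike libraries summed (0.265).

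Dll1, a Delta-like ligand (ENSMUSG00000014773, chromosome 17, 15367354 to 15376872), fell in adult mTEChi without Aire, and a rise in mTEClo depended on the setting. Adult mTEChi had Dll1 at 17.0 to 28.0 (median 18.4) CPM in WT and 7.71, 10.7, 7.65 and 11.8 CPM in AireKO, with no overlap, and it fell by 1.12 ± 0.17 (SE) on the log2 scale (edgeR adjusted p = 3.57e-06). Adult mTEClo had Dll1 at 49.3 to 72.8 (median 58.8) CPM in WT and 79.0, 70.9, 81.3 and 69.4 CPM in AireKO, and it rose by 0.34 ± 0.12 (SE) on the log2 scale (edgeR adjusted p = 0.0310). The mTEClo rise was lost on leaving out mTEClo WT replicate 2, 4, 6 or 8 or mTEClo AireKO replicate 1 or 3 (edgeR adjusted p 0.0536 to 0.145). It was also lost with age in weeks (edgeR adjusted p = 0.275) or kind of library (0.116) as a term, and with male libraries only (0.149). The same held among libraries with mitochondrial counts, with no filter, under the replicate block and with closely alike libraries summed (edgeR adjusted p 0.0736 to 0.127). The Aire effects differed by -1.46 ± 0.21 (SE) (edgeR adjusted p = 6.26e-06), and no alternative setting ended that call. WT mTEChi lay below WT mTEClo, with a log2 difference of -1.53 ± 0.11 (SE) (edgeR adjusted p = 8.65e-13). The long noncoding transcript A930024N18Rik overlaps Dll1 on the other strand.

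Neonatal mTEChi had Dll1 at 12.3, 10.3, 18.8, 22.3 and 18.6 CPM in Ctrl and 29.5, 32.5 and 21.8 CPM in EEDcKO, and it rose by 0.71 ± 0.26 (SE) on the log2 scale (edgeR adjusted p = 0.0369). The rise was lost on leaving out mTEChi Ctrl replicate 1 or 2 or mTEChi EEDcKO replicate 1 or 2 (edgeR adjusted p 0.0683 to 0.187). AireKO mTEChi was at 16.3, 6.15 and 8.69 CPM, a difference from Ctrl of -0.75 ± 0.31 (SE) (edgeR adjusted p = 0.0730). AireEEDdKO mTEChi was at 25.1, 17.2 and 22.6 CPM, above every AireKO library, and Dll1 rose by 1.10 ± 0.34 (SE) on the log2 scale (edgeR adjusted p = 0.0280). That rise was lost on leaving out mTEChi AireKO replicate 2 or 3 or mTEChi AireEEDdKO replicate 1 or 3 (edgeR adjusted p 0.0787 to 0.130). Neonatal mTEClo had Dll1 at 30.2, 40.0 and 43.5 CPM in Ctrl, 42.4, 48.5, 67.0 and 68.6 CPM in EEDcKO and 42.2, 47.0 and 70.5 CPM in AireEEDdKO, with a difference of EEDcKO from Ctrl of 0.59 ± 0.26 (SE) (edgeR adjusted p = 0.0805). Ctrl mTEChi was lower in Dll1 than Ctrl mTEClo, with a log2 difference of -1.14 ± 0.25 (SE) (edgeR adjusted p = 0.00157).

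**Figure D3:**
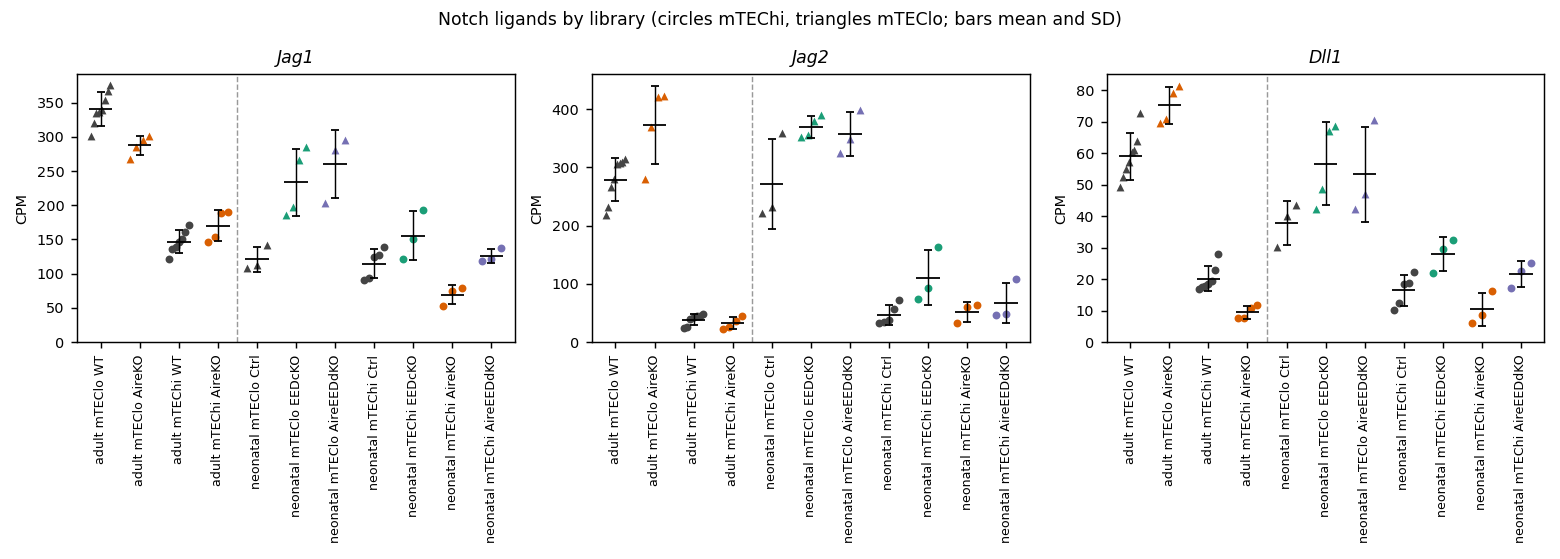
Jag1, Jag2 and Dll1 in CPM for each library, by group, with the group mean and bars of 1 SD; circles are mTEChi, triangles mTEClo, and the dashed line parts the adult from the neonatal table. Jag2 and Dll1 are lower in mTEChi than in mTEClo in both tables, and Jag1 is lowest in neonatal AireKO mTEChi, at 74.7, 53.3 and 79.3 CPM.

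Hes1, a repressor and classical Notch target (ENSMUSG00000022528, chromosome 16, 30064384 to 30067796), was at 17.8, 17.7 and 32.4 CPM in neonatal Ctrl mTEClo and 41.1, 57.4, 66.8 and 58.8 CPM in EEDcKO mTEClo. There was no overlap, and Hes1 rose by 1.35 ± 0.33 (SE) on the log2 scale (edgeR adjusted p = 0.00348). AireEEDdKO mTEClo was at 86.0, 80.0 and 70.0 CPM, above every EEDcKO library, although the difference of 0.48 (edgeR adjusted p = 0.339) did not pass. Neonatal mTEChi had Hes1 at 15.1, 7.45, 6.55, 10.7 and 18.6 CPM in Ctrl and 15.4, 36.4 and 41.2 CPM in EEDcKO, and it rose by 1.43 ± 0.32 (SE) on the log2 scale (edgeR adjusted p = 0.00155). The 6-day EEDcKO library, replicate 1, lay within the Ctrl range, and among libraries aged 4 days or more the edgeR adjusted p was 0.710, from 1 EEDcKO library taken to vary like the other groups. AireKO and AireEEDdKO mTEChi had Hes1 at 11.6, 6.15 and 11.8 CPM and 14.0, 13.2 and 27.0 CPM, a difference of 0.88 ± 0.42 (SE) (edgeR adjusted p = 0.158).

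Adult WT mTEClo had Hes1 at 25.8 to 40.0 (median 34.4) CPM and AireKO mTEClo at 32.2, 46.1, 48.9 and 49.3 CPM, and it rose by 0.42 ± 0.14 (SE) on the log2 scale (edgeR adjusted p = 0.0335). The rise was lost on leaving out mTEClo WT replicate 4 or 5 or mTEClo AireKO replicate 2, 3 or 4 (edgeR adjusted p 0.0612 to 0.143). Among mTEClo libraries with mitochondrial counts the difference was 0.21 (edgeR adjusted p = 0.492), and with age in weeks as a term 0.13 (edgeR adjusted p = 0.710). Adult mTEChi had Hes1 at 6.07 to 12.3 (median 7.97) CPM in WT and 9.42, 7.51, 7.65 and 10.1 CPM in AireKO, the AireKO libraries inside the WT range, with a difference of 0.042 (edgeR adjusted p = 0.882). WT mTEChi was below WT mTEClo in Hes1, with a log2 difference of -1.99 ± 0.15 (SE) (edgeR adjusted p = 1.67e-12), and for neonatal Ctrl that difference was -0.90 ± 0.34 (SE) (edgeR adjusted p = 0.0399). The neonatal call was lost on leaving out mTEClo Ctrl replicate 3 or mTEChi Ctrl replicate 2, 3 or 4 (edgeR adjusted p 0.0741 to 0.304).

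Hey1, a repressor related to Hes1 (ENSMUSG00000040289, chromosome 3, 8663359 to 8667256), was the member that fell in EEDcKO mTEClo. Neonatal mTEClo had Hey1 at 73.0, 67.1 and 93.7 CPM in Ctrl and 32.4, 43.5, 47.8 and 49.1 CPM in EEDcKO. All EEDcKO libraries were below all Ctrl libraries, and Hey1 fell by 0.84 ± 0.23 (SE) on the log2 scale (edgeR adjusted p = 0.00826). AireEEDdKO mTEClo was also low, at 37.2, 37.9 and 39.7 CPM. Neonatal mTEChi had Hey1 at 13.9, 11.5, 15.5, 27.5 and 18.8 CPM in Ctrl and 23.3, 29.1 and 20.3 CPM in EEDcKO, a difference of 0.44 (edgeR adjusted p = 0.177). The EED effect on Hey1 was higher in mTEChi than in mTEClo, by 1.28 ± 0.34 (SE) (edgeR adjusted p = 0.0482). That difference was lost in 12 of 15 fits that left out 1 library (edgeR adjusted p 0.0534 to 0.119), and with age class as a term (edgeR adjusted p = 0.0791).

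AireKO mTEChi of the neonate had Hey1 at 11.6, 6.83 and 9.81 CPM, and against Ctrl it fell by 0.92 ± 0.30 (SE) on the log2 scale (edgeR adjusted p = 0.0226). The fall was lost on leaving out mTEChi AireKO replicate 2 or 3 (edgeR adjusted p 0.0583 to 0.0869). Among libraries aged 4 days or more the difference was -0.52 (edgeR adjusted p = 0.382), and under the replicate block -0.56 (edgeR adjusted p = 0.209). AireEEDdKO mTEChi had Hey1 at 18.1, 10.3 and 25.5 CPM, and against AireKO it rose by 0.97 ± 0.33 (SE) on the log2 scale (edgeR adjusted p = 0.0448). The rise was lost on leaving out mTEChi AireKO replicate 1, 2 or 3 or mTEChi AireEEDdKO replicate 1 or 3 (edgeR adjusted p 0.0577 to 0.335). Adult mTEChi had Hey1 at 2.43 to 9.88 (median 6.29) CPM in WT and 1.28, 4.35, 3.99 and 4.06 CPM in AireKO, on 3 to 12 counts per AireKO library, and it fell by 0.94 ± 0.33 (SE) on the log2 scale (edgeR adjusted p = 0.0176). The adult call was lost on leaving out mTEChi AireKO replicate 1 (edgeR adjusted p = 0.108). Adult mTEClo was at 38.1 to 55.3 (median 44.9) CPM in WT and 37.6, 38.6, 30.9 and 53.7 CPM in AireKO, a difference of -0.20 (edgeR adjusted p = 0.430). Hey1 separated the unmutated fractions, with a log2 difference of mTEChi from mTEClo of -2.80 ± 0.19 (SE) (edgeR adjusted p = 1.31e-13) in the adult and -2.11 ± 0.23 (SE) (edgeR adjusted p = 1.04e-06) in the neonate.

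Nrarp, the feedback inhibitor (ENSMUSG00000078202, chromosome 2, 25180758 to 25183339), was near the limit of these libraries. In the adult table it had 0 to 11 counts per library and was under the filter on low counts, so no adult comparison was tested. Neonatal mTEChi had Nrarp at 1.67, 0, 1.36, 0.524 and 0.929 CPM in Ctrl (0 to 5 counts) and 3.69, 3.04 and 2.81 CPM in EEDcKO (6 to 14 counts), and it rose by 1.73 ± 0.49 (SE) on the log2 scale (edgeR adjusted p = 0.0101). The ranges did not overlap, but under the replicate block the edgeR adjusted p was 0.0650. AireKO and AireEEDdKO mTEChi had Nrarp at 2.04, 1.37 and 1.12 CPM and 1.17, 0.573 and 1.91 CPM, which overlap. Neonatal mTEClo had Nrarp at 1.34, 1.39 and 1.67 CPM in Ctrl, 1.00, 3.92, 3.17 and 2.50 CPM in EEDcKO and 5.32, 4.28 and 2.53 CPM in AireEEDdKO, with a difference of EEDcKO from Ctrl of 0.86 (edgeR adjusted p = 0.219).

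Dtx1, the Deltex ligase (ENSMUSG00000029603, chromosome 5, 120680202 to 120711927), was the 1 member higher in adult mTEChi than in mTEClo. Adult WT mTEChi had Dtx1 at 8.12 to 17.4 (median 15.0) CPM and WT mTEClo at 0 to 3.00 (median 2.01) CPM, a log2 difference of 2.86 ± 0.26 (SE) (edgeR adjusted p = 6.08e-11). Adult AireKO mTEChi was at 12.4, 11.1, 6.66 and 8.92 CPM and AireKO mTEClo at 1.64, 0.622, 1.80 and 0.981 CPM, with differences from WT of -0.53 ± 0.25 (SE) (edgeR adjusted p = 0.0812) and -0.53 (edgeR adjusted p = 0.427). In the neonate the fractions of Ctrl overlapped, with a difference of 0.72 (edgeR adjusted p = 0.193).

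Neonatal mTEChi had Dtx1 at 2.79, 5.16, 7.09, 6.02 and 9.76 CPM in Ctrl and 16.0, 24.3 and 18.7 CPM in EEDcKO. All EEDcKO libraries were above all Ctrl libraries, and Dtx1 rose by 1.62 ± 0.35 (SE) on the log2 scale (edgeR adjusted p = 0.00117). AireKO mTEChi was at 2.72, 2.73 and 3.08 CPM on 4 to 11 counts, and AireEEDdKO mTEChi at 15.2, 12.0 and 6.68 CPM, and between them Dtx1 rose by 1.91 ± 0.51 (SE) on the log2 scale (edgeR adjusted p = 0.0109). That rise was lost on leaving out mTEChi AireEEDdKO replicate 1 (edgeR adjusted p = 0.0570). Neonatal mTEClo had Dtx1 at 2.68, 5.22 and 3.91 CPM in Ctrl and 5.34, 17.5, 11.4 and 6.01 CPM in EEDcKO, again without overlap, and it rose by 1.34 ± 0.43 (SE) on the log2 scale (edgeR adjusted p = 0.0213). The mTEClo call was lost on leaving out mTEClo Ctrl replicate 1 or 3 or mTEClo EEDcKO replicate 2 (edgeR adjusted p 0.0622 to 0.145). AireEEDdKO mTEClo was at 13.8, 9.16 and 8.50 CPM, a difference from EEDcKO of 0.056 (edgeR adjusted p = 0.955).

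**Figure D4:**
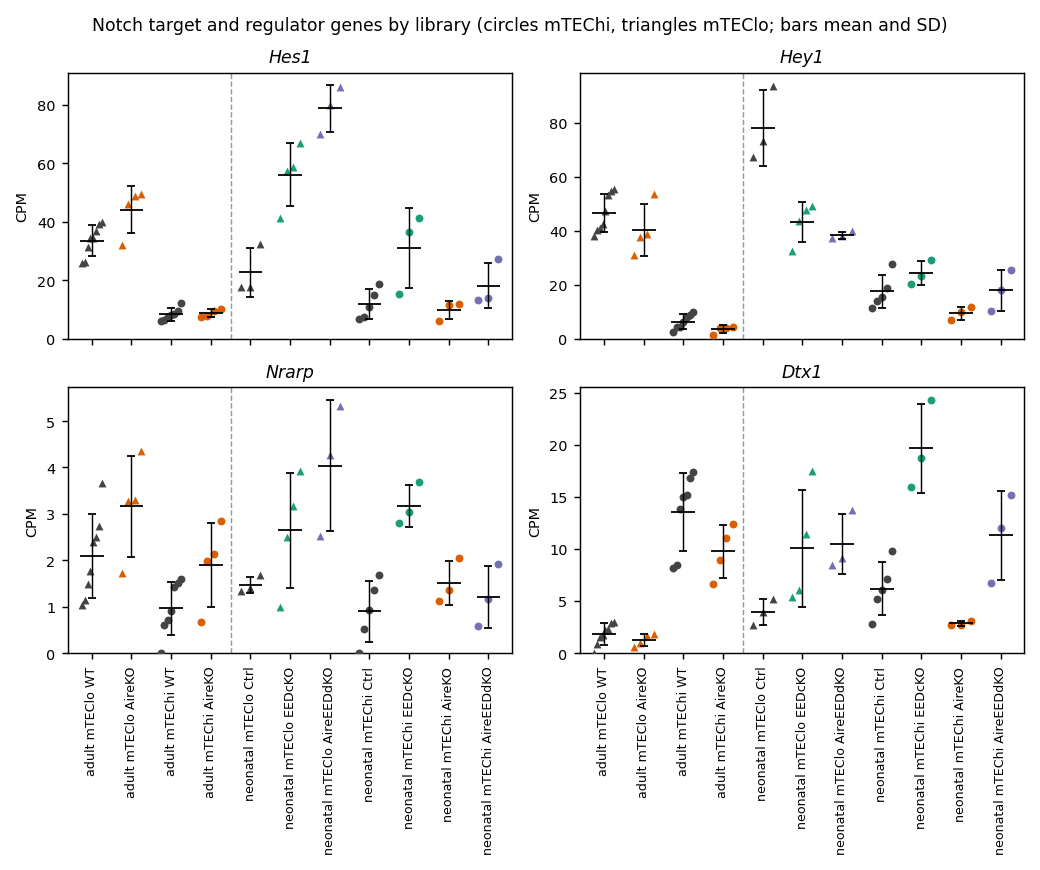
Hes1, Hey1, Nrarp and Dtx1 in CPM for each library, by group, with the group mean and bars of 1 SD; circles are mTEChi, triangles mTEClo, and the dashed line parts the adult from the neonatal table. Hes1 and Dtx1 are higher in neonatal EEDcKO mTEClo than in Ctrl while Hey1 is lower, at 32.4, 43.5, 47.8 and 49.1 CPM against 73.0, 67.1 and 93.7 CPM.

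A list of 46 other pathway genes, all in both tables, covered the remaining receptor, ligands, transcription complex, proteases, modifiers and Hes and Hey relatives, and at most 4 of each comparison are named, those with the smallest p among genes past the test whose higher group averaged 5 CPM or more. In neonatal mTEChi between EEDcKO and Ctrl, 23 of 41 passed, 20 higher and 3 lower (56.1%, against 32.6% of all genes, median log2 change 0.46, -0.0012 over all genes). The named genes all rose (edgeR adjusted p 4.75e-05 to 0.000205), with log2 changes in parentheses, and were Dlk1 (2.07), a non-canonical ligand, Maml2 (1.08), a coactivator of the Mastermind family and Heyl (1.80), a Hey relative. In neonatal mTEClo, 20 of 41 passed, 14 higher and 6 lower (48.8%, against 30.7% of all genes, median log2 change 0.29, -0.0058 over all genes). There Heyl (1.95), Neurl1b (1.24), a ligand ubiquitin ligase, and Aph1b (1.28), a subunit of gamma-secretase, rose, and Dll4 (-2.80) fell (edgeR adjusted p 9.12e-05 to 0.000123). Dll4, which also belongs to the cortical marker list above, had a mean of 172 CPM in Ctrl and 25.5 CPM in EEDcKO mTEClo.

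For AireEEDdKO against AireKO mTEChi, 10 of 41 passed, 9 higher and 1 lower (24.4%, against 16.8% of all genes, median log2 change 0.33, 0.034 over all genes). Maml2 (1.26), Heyl (2.37) and Psen2 (0.88), a presenilin, rose (edgeR adjusted p 0.000116 to 0.0135). Dlk1 rose as well, from a mean of 1.37 to 71.8 CPM (edgeR adjusted p = 6.76e-06), and no fold is given because AireKO libraries held 0 to 5 counts. For neonatal AireKO against Ctrl mTEChi, 20 of 41 passed, 11 higher and 9 lower (48.8%, against 28.8% of all genes, median log2 change -0.0072, 0.035 over all genes). Dtx2 (0.97) and Hes6 (0.99) rose (edgeR adjusted p 5.61e-05 to 0.000885), and Dlk1 fell from 22.5 to 1.37 CPM (edgeR adjusted p = 0.000314). Dlk1 was the 1 pathway gene of 41 to pass the interaction (edgeR adjusted p = 0.0393), against 1.57% of all genes.

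Against EEDcKO, AireEEDdKO mTEChi had 8 of 41 pathway genes past the test, 5 higher and 3 lower (19.5%, against 22.5% of all genes). Rbpj (0.87), the DNA-binding partner of cleaved Notch, and Adam17 (0.45), a protease that can cut the receptor, rose, while Dtx3l (-0.99) and Dtx4 (-1.88), Deltex relatives, fell (edgeR adjusted p 0.000105 to 0.00412). In mTEClo the same genotypes gave 9 of 41, 8 higher and 1 lower (22.0%, against 8.02% of all genes). Dner (1.83), Mfng (1.43), a fringe glycosyltransferase, and Hes6 (1.02) rose, and Dtx3l (-0.71) fell (edgeR adjusted p 0.00281 to 0.00991). The EED effect differed between neonatal fractions for 2 of 41 (4.88%, against 1.98% of all genes), Dll4 (2.49) and Hes6 (1.40), both with the higher log2 change in mTEChi (edgeR adjusted p 0.00970 to 0.0370).

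In adult mTEChi between AireKO and WT, 26 of 42 passed, 14 higher and 12 lower (61.9%, against 54.5% of all genes, median log2 change 0.059, -0.053 over all genes). Numb (0.90), which restrains Notch, and Dtx2 (1.10) rose (edgeR adjusted p 1.03e-10 to 4.69e-09), and Dlk1 fell from a mean of 36.4 CPM in WT (27 to 175 counts) to 0 or 1 count in each AireKO library (edgeR adjusted p = 1.61e-08). In adult mTEClo, 17 of 42 passed, 10 higher and 7 lower (40.5%, against 25.1% of all genes, median log2 change 0.15, 0.022 over all genes). Rfng (0.88), a fringe, and Hes6 (1.13) rose, and Dtx3l (-0.50) and Dtx4 (-1.09) fell (edgeR adjusted p 5.72e-07 to 4.26e-05). The Aire effect differed between adult fractions for 15 of 42 (35.7%, against 24.4% of all genes), the named ones being Numb (0.76) and Dtx2 (1.08) with the higher change in mTEChi, and Dner (-2.31) and Dlk1 with the lower (edgeR adjusted p 1.38e-06 to 3.11e-05). Between fractions of adult WT cells, 33 of 42 differed (78.6%, against 70.3% of all genes), Dll4 (2.63) and Rbpj (1.12) being higher in mTEChi and Dtx4 (-2.53) and Hey2 (-3.18) lower (edgeR adjusted p 1.26e-15 to 9.27e-15). In neonatal Ctrl it was 18 of 41 (43.9%, against 37.4% of all genes), with Rbpj (0.93) higher in mTEChi and Maml2 (-1.29), Maml3 (-1.48) and Dtx4 (-1.84) lower (edgeR adjusted p 2.68e-07 to 4.28e-05).

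The genes whose log2(CPM + 1) followed that of Notch1 most closely over the 24 neonatal libraries, among 20174 genes ranked, were Rnf44 (Pearson r 0.954), Cdc42bpg (0.953), Midn (0.949), Ddah2 (0.948) and Hyal2 (0.947). These libraries share their groups, and r contains the differences between them. After each group's mean was taken away it was 0.650, 0.469, 0.678, 0.479 and 0.657 in that order. Over the 23 adult libraries r was 0.965, 0.831, 0.855, 0.546 and 0.855. Of the members, Notch3 came closest in the neonate at 0.884 (rank 234), followed by Hes1 at 0.829 and Notch2 at 0.802, and Hey1 was the farthest at 0.269 (rank 7135). With group means taken away the members came in another order, Hes1 at 0.692 ahead of Notch3 at 0.503 and Notch2 at 0.343. Over the adult libraries Notch2 had r 0.815, Hes1 0.689 and Notch3 0.399. Dtx1 had r 0.574 in the neonatal and -0.654 in the adult libraries.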

How the data were processed

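Total RNA of sorted cells was made into libraries by a modified RamDA-seq protocol, and the authors deposited raw read counts per Ensembl gene, made as follows. Reads were trimmed with fastp 0.20.0, mapped to mm10 (GRCm38) with STAR 2.7.3a, filtered with SAMtools 1.9, freed of duplicates with Picard 2.21.1 and counted without strand by HTSeq 0.11.2, per the labels and the study's methods. The release of the annotation was not given in the sources used here. The normalized tables of the same libraries were not used.

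From the counts, each table was fitted as a whole with edgeR 4.0.16 in R 4.3.3 (TMM scaling, genes kept by filterByExpr on the groups, quasi-likelihood F-test on contrasts of group means, no covariates), with Benjamini-Hochberg adjustment over all genes tested and 0.05 as the threshold. SE is the log2 change divided by the square root of F, given where the unadjusted p was under 0.05. CPM were not compared between the tables by a test, since they were counted and scaled separately. The script was tested on simulated data. No pair of libraries agreed within sampling noise, and pairs of a group under a chi-square of 2 per gene were summed in an alternative chosen after seeing the data. Reads without molecular identifiers are not independent molecules, and the SE and p cover the spread between libraries only.

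The members and lists were chosen with earlier results of these data known. Named are the 10 members, Aire and Eed, at most 4 of the 46 other pathway genes in a comparison (smallest p among those past the test whose higher group averaged 5 CPM or more), and the 5 genes most correlated with Notch1 over neonatal libraries. An item that this rule names is not reported here. Same-numbered libraries deviated together in 1 comparison, neonatal mTEChi AireEEDdKO against AireKO (3 pairs, r 0.123 to 0.226), where they also shared an age. The alternatives were DESeq2 1.42.0, other scalings, no filter, a 2-fold minimum, only the groups compared, the replicate number as a block, sex, age or kind of library as a term, subsets of libraries, summing closely alike libraries, and leaving out each library.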

Additional observations from a re-analysis of the deposited data

Results flagged for a closer look

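In adult AireKO mTEChi, Hey1 stood at 1.28 CPM in replicate 1, on 3 counts, far below the other 3 libraries at 3.99 to 4.35 CPM. Of 60 sets of libraries looked at (10 genes in 6 groups of 4 to 8 libraries) it was the 1 with a library this far from the rest, where chance gives about 3. Without that library the fall of Hey1 in adult AireKO mTEChi no longer passed, as given with its values above.

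The effect of Aire deficiency differed between the adult fractions for 4 members by the test of the difference itself. The log2 difference, mTEChi minus mTEClo, was 0.52 for Notch1, 0.47 for Jag1, -0.73 for Jag2 and -1.46 for Dll1. Only that of Dll1 passed with closely alike libraries summed. The effect of EED deficiency differed between the neonatal fractions for Hey1, by 1.28. All 4 adult AireKO mTEChi libraries and 2 of the 4 AireKO mTEClo libraries held no mitochondrial counts, so in mTEChi genotype and kind of library cannot be told apart.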

How the results depend on the processing

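Numbers of members past the test are given by comparison. Where no share of all genes stands beside a count, the count is not a result about the members. With a minimum of 2-fold, adult AireKO against WT gave 2 in mTEChi, 1 in mTEClo and 1 for the difference between them. The share of all genes fell there too, to 23.4%, 8.31% and 13.8% in that order. With the same minimum neonatal Ctrl fractions gave 3, AireKO against Ctrl mTEChi 0, AireEEDdKO against AireKO 2 and against EEDcKO 1, and EEDcKO against Ctrl mTEClo 4. The adult mTEClo count of 5 became 3 with no filter on low counts, 2 with the replicate number as a block, 1 with male libraries only (where the difference between adult fractions gave 1), 1 with age in weeks as a term, 3 with the kind of library as a term and 3 among libraries with mitochondrial counts. The share of all genes moved as well, from 25.1% to 10.4%, 18.9%, 13.7%, 12.6%, 20.6% and 20.9% in that order, so the counts say little about the members alone. With closely alike libraries summed, also chosen after seeing the data, the counts were 3 in adult mTEChi, 1 in mTEClo, 1 for the difference between them and 0 for the difference in EED effects. The count of 2 for neonatal AireKO against Ctrl mTEChi became 5 when scaled by library size alone, 4 with no filter, 5 with only the groups compared in the fit, 0 with the replicate block and 1 with age class as a term, beside 28.8% of all genes and then 26.6%, 12.7%, 34.7%, 16.7% and 20.5%. AireEEDdKO against EEDcKO mTEChi gave 1 with only the groups compared, 1 with the replicate block and 1 with age class as a term. Hey1, the 1 member whose EED effect differed between fractions, left 0 with library size alone and 0 with age class as a term. Among libraries aged 4 days or more, chosen after seeing the data, EEDcKO against Ctrl mTEChi gave 2, AireKO against Ctrl 0 and AireEEDdKO against EEDcKO 1. In that subset 1 EEDcKO mTEChi library remained, assumed to vary like the others, and no Ctrl mTEClo library did, so its comparisons could not be fitted. The causes were not tested, and subsets hold fewer libraries. Leaving out each library in turn gave 2 to 5 in adult mTEClo, 1 to 4 for neonatal AireKO against Ctrl, 1 to 4 for AireEEDdKO against AireKO, 1 to 4 against EEDcKO and 0 to 1 for the difference in EED effects. The counts for EEDcKO against Ctrl ran from 6 to 8 in mTEChi and 5 to 8 in mTEClo. Of 53 member values past the test, 22 were lost in at least 1 such fit. Notch1 between neonatal Ctrl fractions, -0.14 in all libraries, ran from -0.25 to 0.024, turning positive without mTEClo Ctrl replicate 3. DESeq2 lost 3 of 60 values and reversed 0.

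Scaling by library size alone moved the median log2 change of all genes from 0.035 to -0.17 in neonatal AireKO against Ctrl mTEChi, where Notch1 became 0.52, from -0.012 to -0.14 in AireEEDdKO against EEDcKO, from -0.053 to -0.17 in adult mTEChi and from -0.081 to -0.19 for the difference between adult fractions. In the comparison where replicate numbers pair the libraries, the block ended the call of Notch3 and added that of Notch2 (edgeR adjusted p = 0.0437). In the other comparisons checked, same-numbered libraries did not deviate together, although some shared an age. In neonatal Ctrl and EEDcKO, the mTEChi and mTEClo libraries alike in labelled sex and age carried different numbers. Matching by number could not find such pairs, and they were not modelled. The block gave 4 in adult mTEChi (49.9% of all genes). For EEDcKO against Ctrl mTEChi the block ended the call of Nrarp and added Jag1 and Hey1 (edgeR adjusted p 0.0277 and 0.0373). In mTEClo the block ended the call of Notch2 (edgeR adjusted p = 0.106). For the interaction it gave 0. Depth limited Nrarp, which had at most 21 counts in any library, and Hey1, which had at most 12 in any adult AireKO mTEChi library.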
